A study of Homo sapiens with 6 samples.

Results

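The 10 genes described here mark pluripotent stem cells: POU5F1, NANOG, PRDM14, ZFP42, TDGF1, LIN28A, LIN28B, L1TD1, DPPA4 and DNMT3B. They were picked by gene symbol, and each has a row among the 35793 genes of the deposited table. Their levels were read in cardiomyocytes made from WTC11, an established human induced pluripotent stem cell line. Wild-type WTC11 cardiomyocytes were set against cardiomyocytes from a WTC11 derivative with a homozygous CRISPR/Cas9 knockout of STK25, a serine/threonine kinase gene. Both genotypes had 3 biological replicates, collected on day 15 of differentiation and given no other treatment. The knockout is 1 line on the same background, so the edit and any other difference between the lines cannot be told apart. Of the 10 genes, 8 averaged 10 or more normalized counts over the 6 libraries and were tested. NANOG and PRDM14 fell under that minimum and are given by their values.

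Reads assigned to genes ran from 22443904 to 53224112 per library. STK25 itself was listed at 8874, 6774 and 8710 normalized counts in the wild type and at 3906, 3434 and 3820 in the knockout (log2 fold change -1.12, SE 0.19, limma adjusted p = 0.00903). Without wild-type replicate 1 its adjusted p was 0.0611. Wild-type replicate 2 and knockout replicate 1 departed from their own genotypes in the same way: the correlation of their deviations across genes was 0.45, against -0.40 to 0.32 for the other pairs of libraries. TNNT2, the cardiac troponin T gene, stood between 206999 and 359162 normalized counts in every library, and 14 of 14 cardiomyocyte markers passed the minimum. In RNA from whole cultures, fewer cells of a type and less RNA per cell cannot be told apart.

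Pluripotent cells are held in their state by a network of transcription factors in which POU5F1 (OCT4) and NANOG act with SOX2, and PRDM14 and ZFP42 (REX1) are associated with it. Around that network stand a co-receptor for the growth factor Nodal (TDGF1, also called Cripto), RNA-binding proteins that block maturation of the let-7 microRNAs (LIN28A and LIN28B), a further RNA-binding protein (L1TD1), a chromatin-associated protein (DPPA4) and a de novo DNA methyltransferase (DNMT3B). Most of these genes are silenced as cells leave pluripotency. TDGF1 is also used by the embryo during formation of the mesoderm and the early heart, and LIN28B and DNMT3B are active in many embryonic cells, so they do not mark stem cells alone.

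The 10 genes did not move as a block. TDGF1 rose 6.28-fold in the STK25 knockout and was the 1 gene of the 8 tested that passed an adjusted p of 0.05 (limma, Benjamini-Hochberg). Over all 15536 genes tested, 12.8% passed that threshold, 5.97% upward and 6.79% downward. DNMT3B, ZFP42 and L1TD1 had lower values in every knockout library than in any wild-type library, and POU5F1 had higher ones, without passing the threshold. LIN28A, LIN28B, DPPA4, NANOG and PRDM14 overlapped between genotypes. Thus 5 of the 8 tested genes, TDGF1 included, had genotypes that did not overlap, beside 33.4% of all genes tested, and 2 of these were higher and 3 lower. Of the 8 tested genes 4 were higher and 4 lower, and their median log2 fold change was -0.05, against 0.01 for all genes tested.

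**Figure D1:**
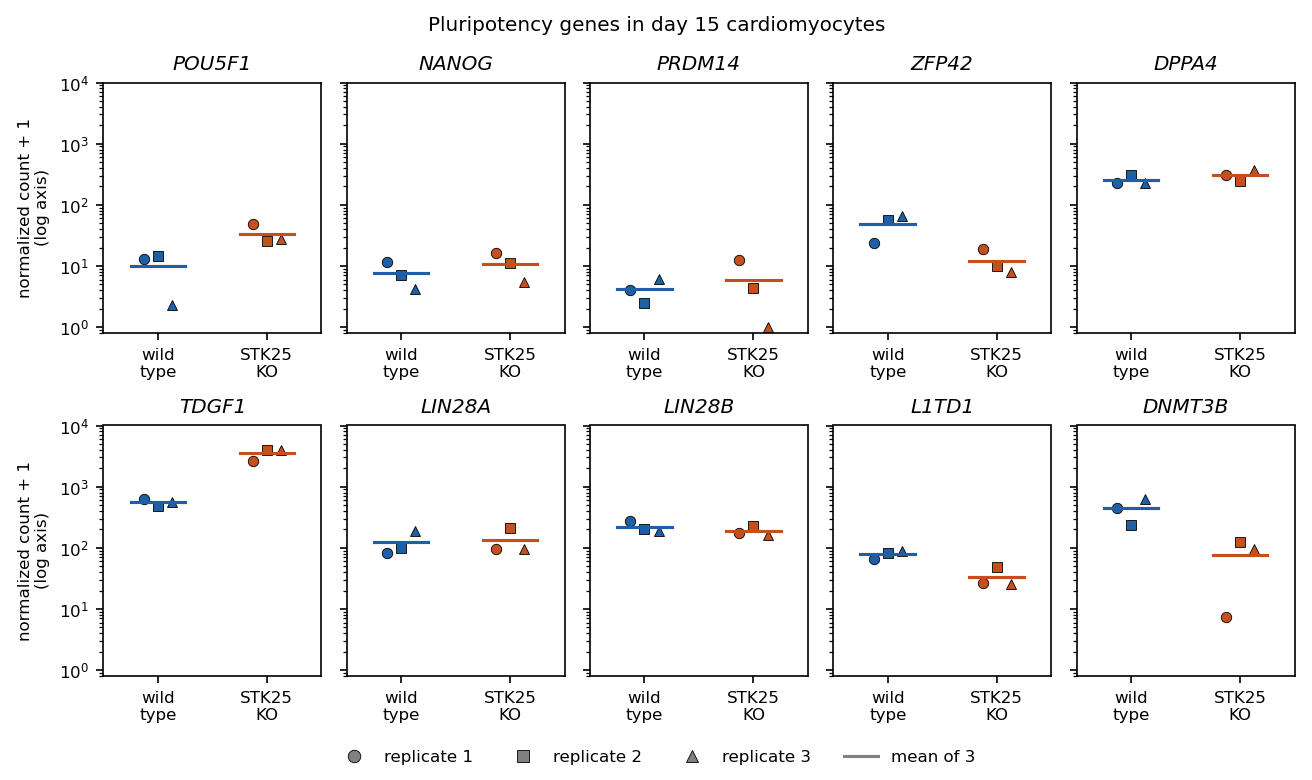
Normalized counts (log axis of the count plus 1) of each of the 10 genes in the 3 wild-type and 3 knockout libraries; each point is a library and each bar a genotype mean. TDGF1 lies between 487 and 629.9 in the wild type and between 2612 and 3969.9 in the knockout, while DNMT3B, ZFP42 and L1TD1 lie lower in the knockout.

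Levels of different genes were compared per kilobase of the longest annotated transcript. In the wild type TDGF1 was the highest of the 10 at 223 ± 28.5 normalized counts per kilobase (SD, n = 3). DNMT3B followed at 102 ± 46.8, DPPA4 at 82.3 ± 14.6, LIN28B at 40.2 ± 7.63, LIN28A at 30.3 ± 14.1, L1TD1 at 20.1 ± 2.86 and ZFP42 at 17.9 ± 8.30. POU5F1 at 3.96 ± 2.97, PRDM14 at 1.37 ± 0.767 and NANOG at 1.277 ± 0.718 were the lowest. Library ranges of neighbours in this order overlapped except between TDGF1 and DNMT3B, between DPPA4 and LIN28B, and between ZFP42 and POU5F1. For scale, TNNT2 stood at 78355 on the same per-kilobase measure.

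In the knockout the order changed in the second place and below. TDGF1 again led, at 1399 ± 311 normalized counts per kilobase, followed by DPPA4 at 101 ± 19.4, LIN28B at 34.2 ± 6.07 and LIN28A at 33.2 ± 16.2. DNMT3B, the second highest in the wild type, stood at 17.2 ± 14, next to POU5F1 at 14.4 ± 5.46. L1TD1 (8.51), ZFP42 (4.25), PRDM14 (2.10) and NANOG (1.91) were the lowest. Only TDGF1 and DPPA4, and DPPA4 and LIN28B, had ranges that did not overlap with the next gene in the order. In wild-type libraries the 10 genes together took 0.00378% to 0.00578% of the reads, and in knockout libraries 0.00666% to 0.0125%. With TDGF1 left out, these shares were 0.00254% to 0.00412% and 0.00142% to 0.00231%.

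TDGF1 encodes a membrane-anchored co-receptor that lets Nodal and GDF1/GDF3 ligands signal through activin receptors. The gene lies on the plus strand of chromosome 3 (GRCh38, 46574534 to 46582463, GENCODE 29). The wild-type libraries held 629.9, 487 and 563 normalized counts, from 417, 639 and 883 reads. The knockout libraries held 2612, 3965 and 3969.9, from 2055, 3557 and 4467 reads. Every knockout library lay more than 4-fold above every wild-type library. The means were 559.9 ± 71.6 and 3516 ± 782 (SD, n = 3), and the log2 fold change was 2.63 (SE 0.24, limma adjusted p = 0.000656). By exact permutation of the libraries the two-sided p was 0.1, the smallest that 3 against 3 allow. TDGF1 held rank 339 from the highest of the 15536 log2 fold changes. The increase was called in all 6 fits that left out a library (2.53 to 2.83) and in all 12 other settings tried (2.35 to 2.65).

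Part of the TDGF1 transcript recurs elsewhere in the genome, which bears on how its reads were assigned. Of its distinct 31-base words, 50.8% also occur in transcripts of other genes, and 47.9% occur in TDGF1P3, a processed pseudogene on the plus strand of chromosome X (110520312 to 110523021). Aligned over the 564-base coding sequence of TDGF1, the pseudogene differed at 7 bases (98.8% identity). The exonic stretch below is shown because it holds 3 of those differences in 90 bases, here in capitals. It runs from base 124 to 213 of the coding sequence of TDGF1 and from base 942 to 1031 of the TDGF1P3 transcript, both 5′ to 3′ from GENCODE 29.

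TDGF1: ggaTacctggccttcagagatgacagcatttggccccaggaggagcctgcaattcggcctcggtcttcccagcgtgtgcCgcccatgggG

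TDGF1P3: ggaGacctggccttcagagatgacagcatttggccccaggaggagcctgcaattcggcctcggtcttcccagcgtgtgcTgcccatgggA

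Reads inside the runs shared by these sequences do not tell the gene from its copy. TDGF1P3 was listed at 25.7, 30.5 and 20.4 normalized counts in the wild type and at 55.9, 127 and 116 in the knockout. It was higher in all 3 knockout libraries, and its reads came to 2.14% to 6.26% of those of TDGF1 in the same library. Its log2 fold change was 1.86 (SE 0.47, limma adjusted p = 0.0404), a call kept in 1 of 6 fits without a library, where the adjusted p ran from 0.0170 to 0.147, and in 6 of 11 other settings. With TDGF1 and its copies summed, an addition made after the data were seen, the log2 fold change was 2.60 (limma adjusted p = 0.000687).

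CFC1 (Cryptic), the paralog of TDGF1 and a co-receptor of the same family, moved the other way. It held 5314, 8933 and 5319 normalized counts in the wild type and 2265, 1197 and 1712 in the knockout. The genotypes did not overlap, and the log2 fold change was -1.92 (SE 0.31, limma adjusted p = 0.00713). Per kilobase, TDGF1 stood at 0.0337 to 0.0733 of the level of CFC1 in the wild-type libraries and at 0.713 to 2.05 of it in the knockout libraries. A copy in the annotation, CFC1B, had 10 reads in wild-type replicate 3 and 0 elsewhere. CFC1 thus exceeded TDGF1 in 3 of 3 wild-type libraries and in knockout replicate 1, and TDGF1 exceeded CFC1 in knockout replicates 2 and 3.

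Among 12 tested genes of the Nodal and TDGF1 pathway, TDGF1 itself not counted, 0 were called higher and 2 lower in the knockout, CFC1 and LEFTY2, and the median log2 fold change was -0.55. With the minimum, edgeR called 0 higher and 2 lower. DESeq2 called 1 higher and 3 lower, where it called 3210 of all genes tested. LEFTY2, a secreted Nodal inhibitor and Nodal target, held 677, 849 and 640.4 normalized counts in the wild type and 39.4, 59.1 and 24.9 in the knockout. It fell 17.6-fold (log2 fold change -4.17, SE 0.37, limma adjusted p = 0.000650). The ligand gene NODAL had 1, 0 and 8 reads in the wild type and 0 in every knockout library, too few to compare. ACVR1C, a gene of that list under the minimum, had 0, 1 and 0 reads in the wild type and 19, 3 and 13 in the knockout. In edgeR without a minimum its log2 fold change was 5.02 (adjusted p = 0.0676), not called. LEFTY2 and CFC1 were called in every fit that left out a library and in every other setting.

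**Figure D2:**
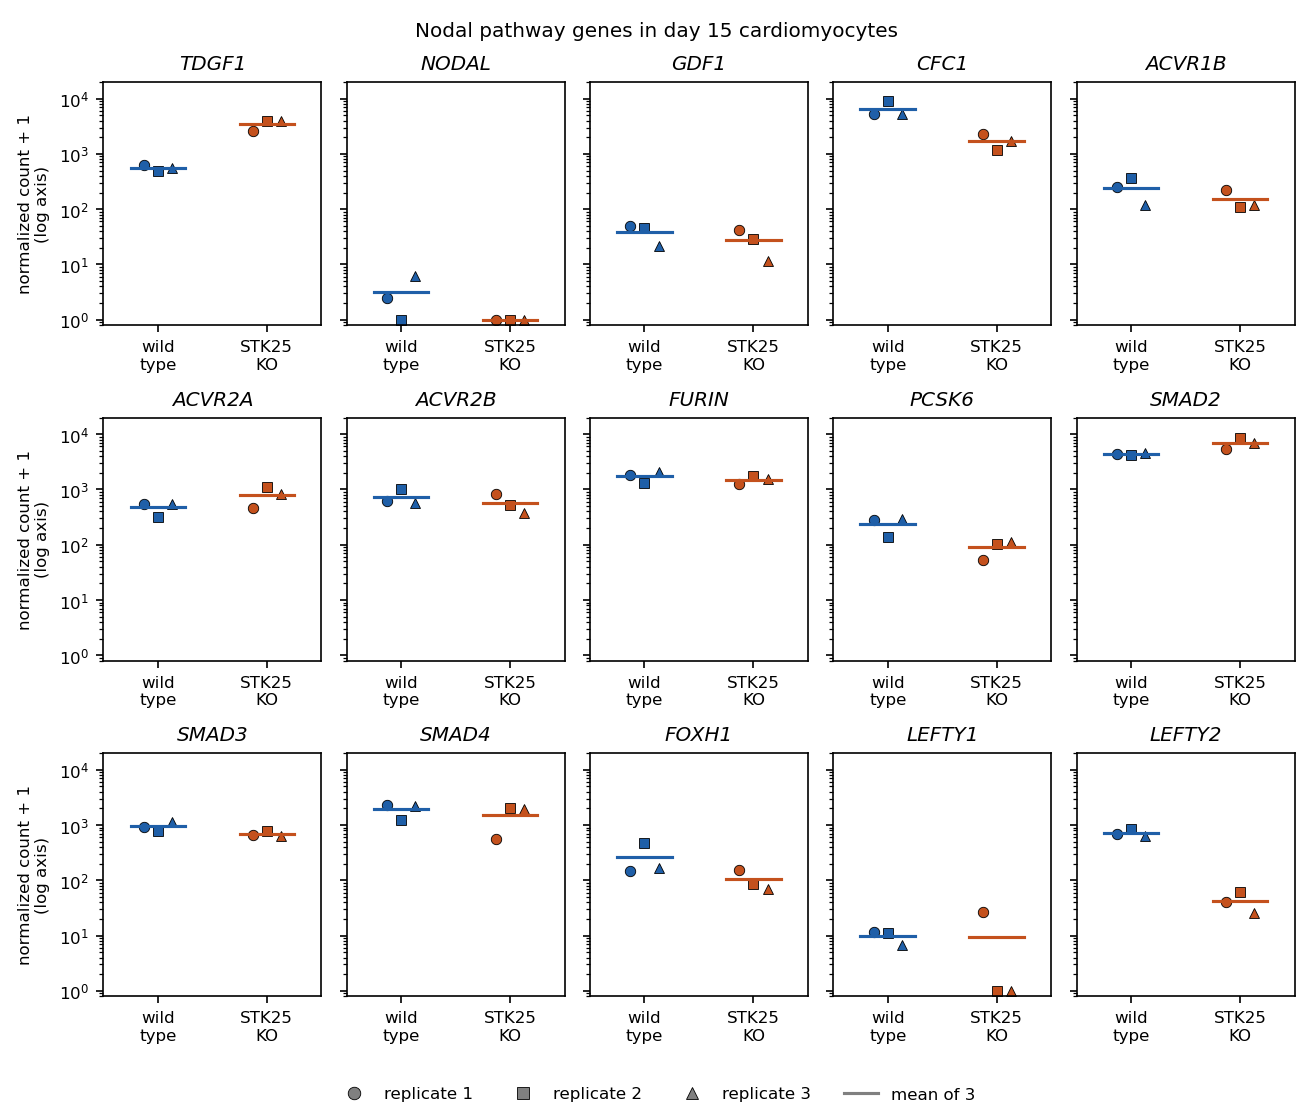
Normalized counts plus 1 (log axis) of TDGF1 and of 14 genes of its pathway, its paralog included, in each of the 6 libraries, with points for libraries and bars for genotype means. CFC1B and ACVR1C, both under the minimum, are not drawn. TDGF1 sits higher in all 3 knockout libraries, and CFC1 and LEFTY2 sit lower in all 3.

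Of the transcription factors, POU5F1 was near the detection limit in the wild type. It encodes the octamer-binding factor OCT4 and lies on the minus strand of chromosome 6 (31164337 to 31180731). The wild-type libraries held 12.1, 13.7 and 1.276 normalized counts, from 8, 18 and 2 reads. The knockout libraries held 47.0, 24.5 and 26.7, from 37, 22 and 30 reads. All 3 knockout libraries lay above all 3 wild-type libraries. The means were 9.02 ± 6.76 and 32.7 ± 12.4 (SD, n = 3), a log2 fold change of 2.09 (SE 0.85) that did not pass the threshold (limma adjusted p = 0.158). Leaving out a library gave 1.22 to 2.57, and no setting called the difference.

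The reads of POU5F1 are also the least certain of the 10 in their assignment, together with those of TDGF1. Of its 31-base words 50.7% occur in other genes, 23.7% in the retrogene POU5F1B and 19.8% in the pseudogene POU5F1P3. POU5F1B was listed at 33.2, 6.86 and 19.1 normalized counts in the wild type and at 8.90, 1.11 and 31.1 in the knockout. With POU5F1 and its copies summed, the log2 fold change was 0.49 (limma adjusted p = 0.620), against 2.09 for POU5F1 alone.

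NANOG, a homeobox factor of the same core network, was lower still. Wild-type values were 10.6, 6.09 and 3.19 normalized counts (7, 8 and 5 reads), and knockout values were 15.3, 10.03 and 4.44 (12, 9 and 5 reads). The genotypes overlapped. The means were 6.62 ± 3.72 and 9.91 ± 5.41 (SD, n = 3, exact two-sided permutation p = 0.5). In edgeR without a minimum the log2 fold change was 0.58 (adjusted p = 0.794), where 7.57% of 24171 genes were called. NANOG also shares 27.6% of its 31-base words with other genes, 14% with NANOGP8.

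The sequence before the RefSeq start site of NANOG is shown because it carries the binding letters of its partners in the network, next to each other. It lies on the plus strand of chromosome 12 (GRCh38.p14, 7789152 to 7789401), inside the gene as GENCODE 29 draws it (7787794 to 7799141), and is written 5′ to 3′. Capitals mark the octamer core (ATGCAAA, here as its reverse complement, 120 bases before the start site) and the SOX element (ACAATG, 112 bases before it).

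NANOG: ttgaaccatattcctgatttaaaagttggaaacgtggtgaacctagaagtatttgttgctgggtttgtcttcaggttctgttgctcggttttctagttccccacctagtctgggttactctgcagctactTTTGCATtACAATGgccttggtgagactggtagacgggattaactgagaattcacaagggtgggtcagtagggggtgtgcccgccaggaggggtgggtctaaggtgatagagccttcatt

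Both strands of the 300-base windows were searched. The octamer core occurs in 4.46% of 35116 RefSeq promoter windows, the SOX element in 10.8% and both in 0.729%. Windows were found for 6 of the 10 genes, and NANOG was the only one of these 6 with both. LIN28B had the SOX element alone, in 1 of its windows. A match is a description of letters and not of binding. NANOG RNA held at most 12 reads in any library.

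PRDM14 encodes a zinc-finger repressor of differentiation genes and lies on chromosome 8 (70051651 to 70071693, minus strand). It had 2, 2 and 8 reads in the wild type and 9, 3 and 0 in the knockout. In normalized counts these were 3.02, 1.52 and 5.10 against 11.4, 3.34 and 0, where a count of 0 in knockout replicate 3 allows up to 2.67 (3 reads). The genotypes overlapped (exact two-sided permutation p = 0.8), and no difference was detectable at this depth.

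ZFP42 encodes REX1, a zinc-finger protein whose loss is a usual sign that stem cells have left the pluripotent state. It lies on the plus strand of chromosome 4 (187995771 to 188005050). The wild-type libraries held 22.7, 55.6 and 64.4 normalized counts, from 15, 73 and 101 reads. The knockout libraries held 17.8, 8.92 and 7.11, from 14, 8 and 8 reads. All 3 knockout values lay below the wild type, the highest knockout library close under the lowest wild-type one. The means were 47.6 ± 22.0 and 11.3 ± 5.72 (SD, n = 3), a log2 fold change of -1.95 (SE 0.64, limma adjusted p = 0.0884). DESeq2 gave -2.10 (adjusted p = 0.0260) and scaling to equal totals -2.22 (limma adjusted p = 0.0491), both past the threshold. These were the 2 calls in 11 other settings, and DESeq2 called 3210 of all genes tested, against 1982 in the main fit. With the minimum, edgeR gave -2.10 (adjusted p = 0.0872). Of the 6 fits without a library, 0 called ZFP42 (limma adjusted p 0.0579 to 0.283). POU5F1 and ZFP42, both read as signs of residual stem cells, thus lay on opposite sides in the 6 libraries as listed. Neither difference passed the threshold in the main fit. That of POU5F1 was smaller when its copies were summed with it, with a log2 fold change of 0.49 (limma adjusted p = 0.620). The sum also takes in RNA of the copies themselves, so how the reads were assigned was not tested.

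LIN28A and LIN28B encode RNA-binding proteins that bind let-7 precursors and keep them from maturing. LIN28A (chromosome 1, 26410778 to 26429722) held 81.6, 96.7 and 186 normalized counts in the wild type and 95.3, 208 and 96.0 in the knockout. One library in each genotype was about 2-fold above its companions, and the genotypes overlapped. The means were 122 ± 56.6 and 133 ± 65.1 (SD, n = 3), and the log2 fold change was 0.12 (SE 0.47, limma adjusted p = 0.904). Its sign was not stable: it was -0.25 without knockout replicate 2, -0.11 without wild-type replicate 1 and -0.15 with equal totals.

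LIN28B (chromosome 6, 104936616 to 105083332) held 269, 204 and 190.1 normalized counts in the wild type and 177, 226 and 163 in the knockout. The genotypes overlapped, with knockout replicate 2 above wild-type replicates 2 and 3. The means were 221 ± 42.0 and 189 ± 33.4 (SD, n = 3), and the log2 fold change was -0.23 (SE 0.29, limma adjusted p = 0.680). Unlike POU5F1 and NANOG, LIN28B was read from at least 139 reads in every library.

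L1TD1 encodes an RNA-binding protein derived from a LINE-1 element that associates with LIN28A in stem cells. It lies on chromosome 1 (62194831 to 62212328, plus strand). Its wild-type values were 64.9, 80.7 and 86.1 normalized counts, from 43, 106 and 135 reads. Its knockout values were 25.4, 47.9 and 24.9, from 20, 43 and 28 reads. Every knockout value lay below the lowest wild-type one. The means were 77.3 ± 11 and 32.7 ± 13.2 (SD, n = 3), a log2 fold change of -1.27 (SE 0.44) short of the threshold (limma adjusted p = 0.104). It stayed between -1.57 and -1.11 when single libraries were left out.

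Of 22 tested genes of the LIN28 and let-7 axis, 1 was called higher and 2 lower, with a median log2 fold change of -0.31. MYC and MYCN, growth-promoting transcription factor genes and known let-7 targets, went in opposite directions. MYCN held 3649, 2389 and 3876 normalized counts in the wild type and 20.3, 183 and 127 in the knockout (log2 fold change -5.35, limma adjusted p = 0.00374). MYC held 36.3, 31.2 and 65.1 in the wild type and 472, 671 and 669 in the knockout (3.80, SE 0.37, limma adjusted p = 0.000968). Both genes were separated by genotype and were called in every setting. The cyclin gene CCND2 fell by 1.38 on the log2 scale (limma adjusted p = 0.0158), a call lost without knockout replicate 3 (0.0669) and without replicate 1 (0.0744) or 3 (0.0583) of the wild type. LIN28A and LIN28B themselves lay within the spread of their replicates.

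DPPA4 encodes a chromatin-associated protein of pluripotent and germ cells and lies on chromosome 3 (109326141 to 109337572, minus strand). It held 225, 302 and 225 normalized counts in the wild type and 310.2, 247 and 365 in the knockout. The genotypes overlapped through wild-type replicate 2 and knockout replicate 2. The means were 250.4 ± 44.4 and 308 ± 59.0 (SD, n = 3), and the log2 fold change was 0.29 (SE 0.28, limma adjusted p = 0.559). DPPA2, which encodes its binding partner, had no read in 5 of 6 libraries and 1 read in the other one.

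DNMT3B encodes an enzyme that sets new DNA methylation in the early embryo and lies on chromosome 20 (32762385 to 32809356, plus strand). The wild-type libraries held 453, 232 and 638 normalized counts, from 300, 305 and 1000 reads. The knockout libraries held 6.36, 123 and 95.1, from 5, 110 and 107 reads. All 3 knockout libraries lay below the wild type, and knockout replicate 1 lay far below the other knockout libraries. The means were 441 ± 203 and 74.7 ± 60.8 (SD, n = 3), 5.91-fold apart, with a log2 fold change of -3.20 (SE 1.02, limma adjusted p = 0.0835).

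The test of DNMT3B turned on knockout replicate 1. Without it the change was smaller, -1.90 on the log2 scale, and passed the threshold (limma adjusted p = 0.0321). The remaining knockout libraries held 123 and 95.1 normalized counts. Without wild-type replicate 1, 2 or 3 it was -3.12, -3.60 or -2.88, not called (limma adjusted p = 0.222, 0.108 and 0.229). DESeq2 on all 6 libraries gave -2.56 (adjusted p = 0.00904). By edgeR it was -2.56 with the minimum (adjusted p = 0.0934) and -2.57 without (adjusted p = 0.0508). None of the 31-base words of DNMT3B occurs in another gene, so its reads are free of the doubt that touches POU5F1 and TDGF1.

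Other genes that write, remove or read DNA methylation were compared beside DNMT3B. Of 13 tested genes on that list, 0 were called by limma (4 had an unadjusted p under 0.05), 0 by edgeR and 2 by DESeq2, and the median log2 fold change was -0.31. DNMT3A, the sister enzyme of DNMT3B, held 2288, 2234 and 2612 normalized counts in the wild type and 1909, 1432 and 1319.8 in the knockout (log2 fold change -0.63, limma adjusted p = 0.0927). CDCA7, with the largest change on the list, held 965, 551 and 1054 in the wild type and 20.3, 214 and 391 in the knockout. Its log2 fold change was -2.76 (limma adjusted p = 0.108), and knockout replicate 1 was again the lowest library. DNMT1, the maintenance enzyme, had a log2 fold change of -0.02 (limma adjusted p = 0.971). Per kilobase, DNMT3A exceeded DNMT3B in all 6 libraries. Proliferation genes moved beside DNMT3B: 6 of 12 were called lower and 0 higher, and their summed level was 56976 to 61751 normalized counts in wild-type and 30418 to 34580 in knockout libraries. Only 1 to 2 of the 12 were called without wild-type replicate 1 or 3 or without knockout replicate 2 or 3. Their part in the values of DNMT3B was not tested.

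**Figure D3:**
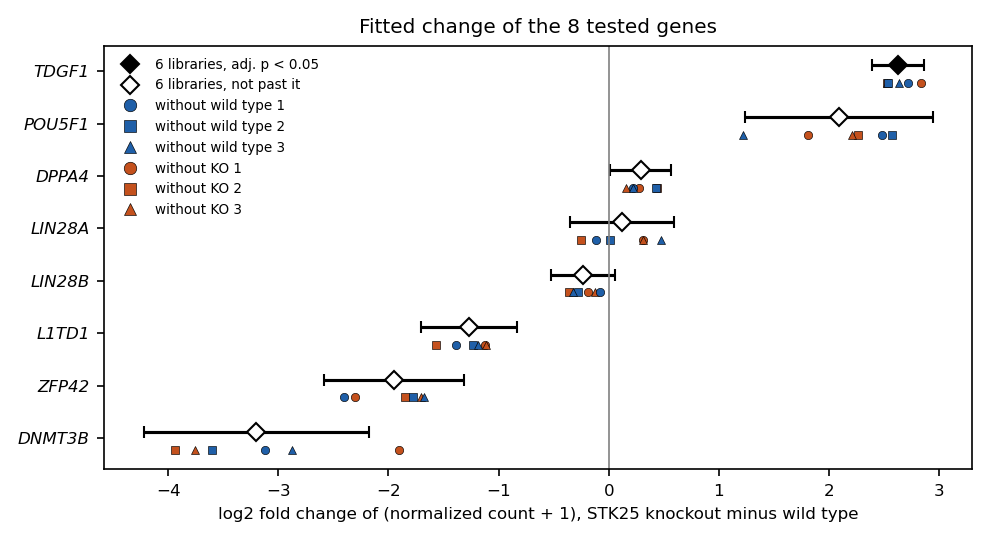
Log2 fold changes (knockout minus wild type, on log2 of the normalized count plus 1) of the 8 tested genes, with limma standard errors and with the values obtained when each library was left out in turn. TDGF1 at 2.63 is the single called gene, DNMT3B ranges from -3.94 to -1.90 over the fits that left out a library, and LIN28A crosses 0.

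Other genes of the pluripotent state were called in both directions. Of 20 tested, 3 were called higher and 2 lower, with a median log2 fold change of 0.08. SOX2, the partner of POU5F1, was at 0, 3.81 and 1.91 normalized counts in the wild type and at 184, 127 and 103 in the knockout (log2 fold change 5.81, limma adjusted p = 0.00256). SFRP2, a secreted Wnt modulator, rose by 4.92 (limma adjusted p = 0.00595). TERF1, a telomere-binding protein gene, rose by 1.25 (limma adjusted p = 0.0172) and was named, like CLDN6, after its value was seen. The call of TERF1 was lost without knockout replicate 3 (0.0619) and without replicate 1 (0.0850) or 3 (0.0741) of the wild type. MYCN and the tight-junction gene CLDN6 (-2.25, limma adjusted p = 0.00102) fell. SALL4, a zinc-finger factor that pluripotent cells share with early heart progenitors, held 629.9, 292 and 648 in the wild type and 449, 449 and 427 in the knockout, which overlapped.

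UTF1, FGF4 and IDO1, further genes of that list, had 0 reads in every library. Among 4 tested genes of the naive state, KLF5 was called higher (2.37, limma adjusted p = 0.00938) and the other 3 were not called by limma (2 more had an unadjusted p under 0.05). DESeq2 called 2 of the 4 higher and 1 lower. Germ cells also express several of the 10 genes. Their defining genes DAZL and DDX4 had 0 reads in all 6 libraries, and of 3 tested germ cell markers PRDM1 was called lower (-4.08, limma adjusted p = 0.0168), a call lost when any wild-type library was left out (0.0552 to 0.0930). The other 2, KIT (2.3, limma adjusted p = 0.297) and DND1 (0.18, limma adjusted p = 0.932), were higher and not called. The median log2 fold change of the 3 was 0.18. TBXT, the defining gene of the primitive streak, where TDGF1 is normally active, had 0 reads throughout, but other genes of that list were present. MIXL1 held 692, 861 and 577 normalized counts in the wild type and 521, 340 and 398 in the knockout. MESP1 held 156, 369 and 133 in the wild type and 264, 155 and 192 in the knockout. GSC and TBX6 lay higher in every knockout library than in any wild-type library. Of 5 tested primitive streak and mesendoderm markers, 0 were called by limma (2 had an unadjusted p under 0.05). With the minimum, 0 were called by edgeR or DESeq2. Alternatives called up to 2 of the list, the most with equal totals. Without a minimum, edgeR called LHX1 (6, 40 and 27 reads in the wild type and 1, 0 and 0 in the knockout, adjusted p = 0.0327), named after its values were seen.

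Markers of neural progenitors include SOX2. Of 7 tested, SOX2, ZIC1 (4.41) and PAX6 (3.28) were called higher and SOX3 lower, while NES, OTX2 and LHX2 were not called. The median log2 fold change was 2.83, but ran from 0.34 (no minimum) to 3.63 over the alternatives, and was 1.84 without wild-type replicate 1. The call of PAX6 was lost whichever library was left out (limma adjusted p 0.0512 to 0.127). SOX3 held 89.1, 103 and 68.9 normalized counts in the wild type and 0 in all knockout libraries. The summed level of the neural list was 4711 to 7997 in wild-type and 6973 to 16907 in knockout libraries, most of it NES (16198 in knockout replicate 1), whose adjusted p by limma was 0.340. Without NES the sums were 209 to 249.8 and 492 to 709. Of 4 tested endoderm markers CXCR4 was called higher (1.96) and AFP lower (-5.21), and FOXA2 had 0 reads. Of the 14 cardiomyocyte markers 0 were called higher and 2, NKX2-5 and PLN, lower, and PLN kept its call in 1 of 6 fits without a library. Their median log2 fold change was 0.49, with 6 of the 14 higher and 4 lower in all 3 knockout libraries than in any wild-type library, and their summed level was 2058039 to 2467228 normalized counts in wild-type and 3297382 to 5167610.0 in knockout libraries. The largest values in each sum were those of MYL7 (1.37, limma adjusted p = 0.114) and ACTC1 (1.06, limma adjusted p = 0.0958), neither called. Of these markers DESeq2 called 6 higher and 4 lower. With the minimum, edgeR called 1 higher and 3 lower, and without it 3 higher and 2 lower. Whether other cell types took part in the values of the 10 genes was not tested.

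**Figure D4:**
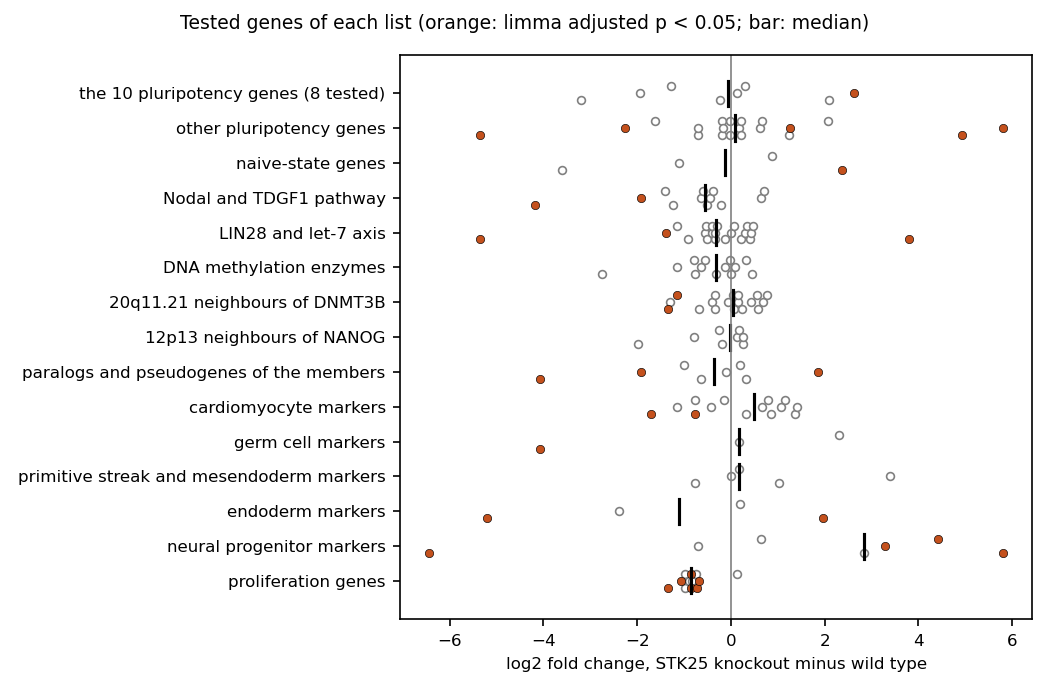
Log2 fold changes (knockout minus wild type) of the tested genes of the pluripotency set and of each related list, 1 point per gene, with called genes marked and the list median drawn. The 10-gene set and the other pluripotency genes spread to both sides of 0, whereas the proliferation genes have a median of -0.85.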

How the data were processed

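RNA sequencing of 6 libraries (3 wild type, 3 STK25 knockout) was analysed from the deposited table, whose values are a signal described as normalized counts per gene symbol. Per the labels' protocols, column-purified, DNase-treated RNA was converted with a Clontech Ultra Low v4 kit into cDNA for NexteraXT libraries. The submitters' processing notes name bcl2fastq 2.19, kallisto 0.44.0, DESeq2 1.28.1 and GRCh38, without their roles. The annotation and the use of strand are not given in the sources used here, so genes overlapping on opposite strands cannot be told apart. In each library 100% of the deposited values were whole multiples of 1 step (relative tolerance 0.001), and these multiples are given as reads. Whether they were counted or are rounded estimates is not given, which bears on POU5F1, TDGF1 and their copies. Floors of 3 reads cover counting error only.

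limma 3.58.1 (R 4.3.3; lmFit, eBayes with trend) compared genotypes on log2(value + 1), without covariates, over the 15536 genes averaging 10 or more across the 6 libraries. Benjamini-Hochberg adjustment covered those genes (threshold 0.05). Fold changes on this scale understate the change of low genes. Differences are knockout minus wild type. Where a fit left out 1 library, that genotype had the other 2, and the spread was pooled over both genotypes. P-values measure the spread between replicates of 1 line per genotype.

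Alternatives were a pseudocount of 0.1 or 10, no minimum or a minimum mean of 50, equal totals, equal upper quartiles, eBayes without trend, the replicate number as a block, each library left out, and edgeR 4.0.16 (with the minimum and without) and DESeq2 1.42.0 on the recovered reads. The models were first tested on simulated data. Summing genes with their copies was added after the data were seen. Same-numbered deviations correlated at -0.23, -0.40 and 0.17. Deviations were taken from the mean of each genotype's few libraries, so these correlations depend on one another. They cannot decide whether the replicate numbers pair the libraries.

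The 10 genes and all lists were chosen with earlier results of these data known; 2 list genes were left out and are not reported here. Named were the 10 genes, STK25, called genes of each list (the 4 largest changes where there were more), copies and paralogs with a mean of at least 10, and for each tested gene of the 10 the 2 genes of highest correlation. Genes named at 0 or uncalled outside this rule were chosen after their values were seen. Gene positions, lengths and the 31-base words came from GENCODE 29 on GRCh38, and promoter windows from RefSeq (GRCh38.p14). Figures were drawn with matplotlib 3.10.9.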

Additional observations from a re-analysis of the deposited data

How the results depend on the processing

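TDGF1 kept its direction and its call in all alternatives. Over the 8 tested genes, 135 of 142 alternative values kept direction and side of the threshold, 4 newly passed it and 3 (LIN28A) changed sign; the causes were not tested. The count of called genes among the 10 was 1, but 3 by DESeq2 (TDGF1, ZFP42, DNMT3B), 2 with equal totals (TDGF1, ZFP42) and 1 to 2 when a library was left out. Under equal totals the median over all tested genes was -0.28 in place of 0.01, and the -2.22 of ZFP42 is read against it. Over all genes, 1982 were called, against 3210 by DESeq2 and 792 (without wild-type replicate 1) to 2192 (without knockout replicate 1) when a library was left out; without wild-type replicate 3 it was 911, without knockout replicate 2 it was 1270 and without knockout replicate 3 it was 963.

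The replicate number used as a block gave 798 called genes. Under it TDGF1 had a limma adjusted p of 0.00884 and STK25 of 0.0684. The labels do not say that the numbers pair the libraries.

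Signs changed for uncalled genes. LIN28A gave -0.15 with equal totals and -0.25 to 0.48 over the fits without a library (-0.25 without knockout replicate 2, -0.11 without wild-type replicate 1). POU5F1B gave -1.94 to 0.022 over those fits. POU5F2 (-0.10) gave 0.10 by DESeq2, 0.075 by edgeR, 0.073 by edgeR with no minimum and -0.57 to 0.46 (0.03 without wild-type replicate 3). YY1 gave -0.093 with equal totals and -0.12 to 0.36 (-0.03 without wild-type replicate 3). YY2 gave -0.12 by DESeq2, -0.14 by edgeR with the minimum and without, and -0.38 to 1.16. ZNF319 gave -0.0093 by edgeR with no minimum, -0.28 with equal totals, -0.045 with equal upper quartiles and -0.19 to 0.15 (-0.05 and -0.09 without wild-type replicates 1 and 2). AC022149.1 gave -2.08 to 1.94 (0.84 without knockout replicate 1 or 3), and ZNF583 gave -0.051 with equal totals. Depth limits POU5F1, NANOG and PRDM14, which held 0 to 37 reads per library. It also limits the knockout values of ZFP42 (14, 8 and 8 reads), of L1TD1 (20, 43 and 28) and of DNMT3B in replicate 1 (5 reads).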

Other observations

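A pair of chromosomal regions next to these genes are known for gains in cultured stem cells, and their genes were read for that reason. Of 18 tested neighbours of DNMT3B at 20q11.21, 0 were called higher and 2 lower, with a median log2 fold change of 0.05. COMMD7, a gene of NF-kappa-B regulation, held 5442, 6266 and 5170.1 normalized counts in the wild type and 2321, 2079.8 and 2242 in the knockout (-1.34, limma adjusted p = 0.00300). POFUT1, a Notch O-fucosyltransferase gene, gave -1.16 (limma adjusted p = 0.0434), a call kept in 1 of 6 fits that left out a library. Of 8 tested neighbours of NANOG at 12p13, 0 were called by limma (1 had an unadjusted p under 0.05), edgeR or DESeq2, and the median was -0.03.

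The genes whose log2 values over the 6 libraries followed each of the 8 tested genes most closely are given as a description, since 6 libraries of 2 genotypes leave many genes with a like pattern. TDGF1 was followed by the glucose transporter gene SLC2A12 (r = 0.998) and the potassium channel-interacting protein gene KCNIP2 (r = 0.998), and 504 genes had an r over 0.95. DNMT3B was followed by ESPL1, which encodes separase (r = 0.998), and TM7SF3 (r = 0.997), with 424 genes over 0.95. POU5F1 was followed by KDM1B (r = 0.996) and RFX4 (r = 0.987), ZFP42 by PLCD4 (r = 0.995) and TMEM198B (r = 0.991), and L1TD1 by FAM53B (r = 0.997) and KCNJ12 (r = 0.994). DPPA4 was followed by OR10G3 (r = 0.991) and ZNF583 (r = 0.989), LIN28B by NPIPB13 (r = 0.968) and CYP2D6 (r = 0.965), and LIN28A by AC022149.1 (r = 0.979) and ZNF319 (r = 0.960).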
